A study of Mus musculus with 12 samples.

Results

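The genes described here are 10 marker genes of Sertoli cells, taken by symbol from the deposited expression table: Sox9, Amh, Wt1, Gata1, Gata4, Trf, Tsc22d3, Shbg, Cldn11 and Inha. All 10 were found among its 23235 genes. They were read in 12 RNA libraries of sorted mouse spermatocytes, 3 libraries in each of 4 groups. The groups were Rnaseh1 knock-out pachytene, wild-type (WT) pachytene, Rnaseh1 knock-out leptotene/zygotene (LZ) and WT LZ cells, all on the C57BL/6 background. Which part of Rnaseh1 was deleted, the Cre driver if there was one, and the age of the mice are not given in the sources used here. Pachytene follows LZ in the first meiotic prophase, and the labels state that the cells were collected by fluorescence-activated sorting with a check of purity. Sertoli cells were thus not the population sorted, and RNA of Sertoli cells cannot be told apart here from expression of these genes by germ cells.

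Sertoli cells are the somatic nurse cells of the seminiferous tubule. They surround the germ cells, form the blood-testis barrier with tight junctions, answer to follicle-stimulating hormone and androgens, and secrete inhibin and carrier proteins for hormones and iron. Germ cells stay in contact with them through meiosis and until sperm are released. Sox9, Wt1, Gata4 and Gata1 encode transcription factors of these cells, Amh and Inha encode hormones, Shbg and Trf encode secreted carriers, Cldn11 encodes a junction protein and Tsc22d3 encodes a regulator induced by glucocorticoids.

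Values are FPKM (fragments per kilobase of transcript, set against the fragments of the library) that the authors scaled by spike-in RNA, so levels of different genes can be set side by side per length. The labels do not say that replicates came from separate animals, so every p below measures the spread between these libraries only. The summed value of a library was 4811570 to 6702160 in knock-out-labelled pachytene, 3319970 to 4183730 in WT pachytene, 430372 to 512468 in knock-out-labelled LZ and 609831 to 885259 in WT LZ libraries. A gene can therefore be higher at pachytene on this scale and still be a smaller part of its library. For this reason each change is also given after each library was scaled so that its median ratio to the average library is equal (median-ratio scaling), which sets the median change of all genes near 0. Rnaseh1 itself was at 77.4, 68.9 and 94.3 FPKM in knock-out-labelled pachytene libraries, against 52.7, 51.7 and 56.8 FPKM in WT pachytene libraries. At LZ it was at 11.02, 18.3 and 14.8 FPKM in knock-out-labelled libraries, against 16.1, 20.5 and 16.8 FPKM in WT libraries. It was not lower at pachytene and overlapped at LZ, so the genotype is called by its label, KO-labelled, throughout.

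The promoters of the 4 members other than Tsc22d3 that have an entry in the RefSeq promoter table (GRCm38.p6, 250 bases before to 50 bases after the start) are shown because 3 of these genes, Shbg, Gata1 and Inha, were called higher together in KO-labelled LZ libraries under median-ratio scaling. Capitals mark GATA on either strand (TATC on the strand shown), the core letters bound by GATA factors such as the members Gata1 and Gata4. The sequences lie at chr1:75507359-75507658 on the plus strand (Inha), chr3:31149670-31149969 on the plus strand (Cldn11), chr11:69617856-69618155 on the minus strand (Shbg) and chrX:7967861-7968160 on the minus strand (Gata1).
Inha: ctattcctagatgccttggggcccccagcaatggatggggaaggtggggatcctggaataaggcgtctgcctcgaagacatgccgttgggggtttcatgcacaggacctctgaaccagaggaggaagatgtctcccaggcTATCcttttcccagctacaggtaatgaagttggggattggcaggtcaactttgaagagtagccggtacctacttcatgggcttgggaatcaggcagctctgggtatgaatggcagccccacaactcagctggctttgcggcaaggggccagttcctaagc
Cldn11: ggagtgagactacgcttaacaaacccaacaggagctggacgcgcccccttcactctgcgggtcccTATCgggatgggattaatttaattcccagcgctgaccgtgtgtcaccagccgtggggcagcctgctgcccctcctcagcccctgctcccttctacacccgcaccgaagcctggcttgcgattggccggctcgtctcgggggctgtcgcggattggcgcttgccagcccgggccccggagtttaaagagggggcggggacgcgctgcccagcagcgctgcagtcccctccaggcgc
Shbg: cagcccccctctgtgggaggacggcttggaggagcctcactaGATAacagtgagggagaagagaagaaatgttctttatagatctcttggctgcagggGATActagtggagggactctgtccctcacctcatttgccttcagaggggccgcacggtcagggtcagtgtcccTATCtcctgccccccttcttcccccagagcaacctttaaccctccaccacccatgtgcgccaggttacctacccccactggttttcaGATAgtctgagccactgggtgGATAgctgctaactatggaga
Gata1: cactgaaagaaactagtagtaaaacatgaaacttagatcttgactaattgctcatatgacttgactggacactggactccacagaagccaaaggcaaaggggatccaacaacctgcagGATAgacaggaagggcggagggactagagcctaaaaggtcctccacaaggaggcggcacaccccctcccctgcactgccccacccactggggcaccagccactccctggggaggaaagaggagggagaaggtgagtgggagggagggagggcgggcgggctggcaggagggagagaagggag
Inha, Cldn11 and Gata1 held 1 GATA each and Shbg held 5. Of all 32851 promoters in the table, 57.9% held at least 1 and 1.88% held 5 or more. GATA was chosen for display after the matches of 6 motifs had been seen. The longer AGATAA, which overlaps GATA, was found once, in Shbg (11.2% of all promoters), and AGGTCA once, in Inha (16.3%). AACAAT (10.7%), TGACGTCA (1.79%) and TGACG (20.8%) had no match in these 4. A match is a description of the letters and shows no binding.

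Inha had the highest mean of the 10 genes over the 12 libraries, at 88.2 FPKM, followed by Tsc22d3 at 67.01, Cldn11 at 33.5, Trf at 15.97, Wt1 at 7.93, Shbg at 6.16, Gata1 at 5.42, Sox9 at 4.06 and Gata4 at 3.25 FPKM. Amh came last at 0.170 FPKM. The libraries of neighbours in this order overlapped, except that every Gata4 library lay above every Amh library. Inha encodes the alpha subunit of inhibin, the hormone by which Sertoli cells restrain the release of follicle-stimulating hormone. Amh, the anti-Müllerian hormone of fetal and immature Sertoli cells, which adult cells largely shut off, was at 0.335, 0 and 0.320 FPKM in KO-labelled pachytene, 0.220, 0.175 and 0 FPKM in WT pachytene, 0.0386, 0.124 and 0.410 FPKM in KO-labelled LZ and 0.129, 0.244 and 0.0412 FPKM in WT LZ libraries. It was below 1 FPKM in every library, did not pass the filter for testing (at least 1 FPKM in at least 3 libraries), and has no test. The other 9 members did. Of these, Sox9, Wt1, Gata4, Gata1, Inha, Shbg, Cldn11 and Tsc22d3 were above 0.5 FPKM in all 12 libraries, and Trf was below it in 1.

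**Figure D1:**
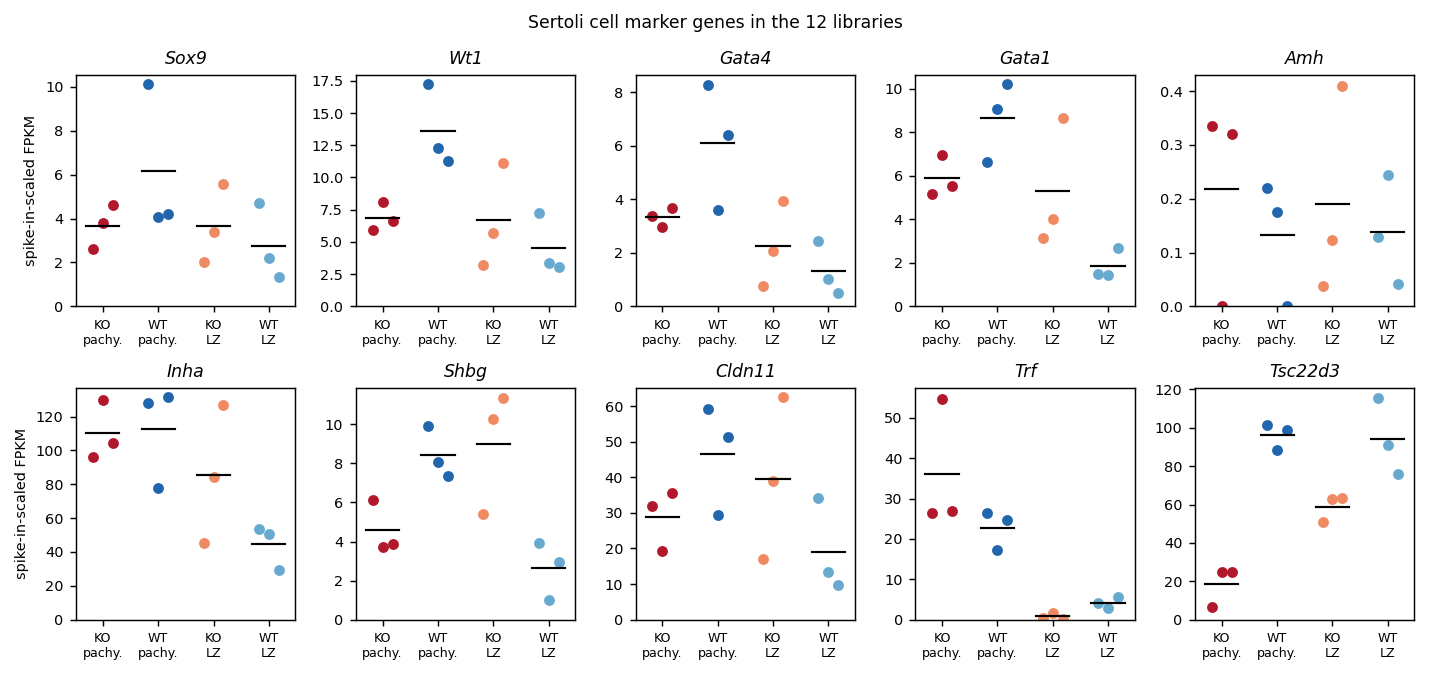
Spike-in-scaled FPKM (linear axes from 0, a scale per gene) of the 10 Sertoli markers in the KO-labelled pachytene, WT pachytene, KO-labelled LZ and WT LZ libraries ("KO" on the axis stands for KO-labelled). Points are libraries in replicate order and lines are group means (n = 3). Trf is near 0 in KO-labelled LZ libraries, Tsc22d3 is lowest in KO-labelled pachytene libraries, and Amh stays under 0.5 FPKM.

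The first question was whether the markers differed between the genotypes at LZ. Shbg and Gata1 were higher and Trf was lower in KO-labelled LZ libraries, while the other 6 members tested did not pass the threshold. Shbg, which encodes the androgen-binding protein that Sertoli cells secrete into the tubule, was at 5.39, 10.3 and 11.3 FPKM in KO-labelled LZ libraries, against 3.91, 1.01 and 2.95 FPKM in WT LZ libraries. The groups did not overlap, and the log2 change was 1.504 (SE 0.36, adjusted p = 0.0233). Gata1, an X-linked zinc-finger factor best known from red blood cell formation and made in the testis by Sertoli cells, was at 3.16, 4.02 and 8.68 FPKM in KO-labelled LZ libraries, against 1.47, 1.42 and 2.71 FPKM in WT LZ libraries. Every KO-labelled library lay above every WT library, and the log2 change was 1.06 (SE 0.33, adjusted p = 0.0496). In the RefSeq annotation, Gata1 overlaps the long non-coding RNA genes Gm39488 and Gm52419, which are not in the table, and use of strand in counting is not given in the sources used here.

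Trf, which encodes transferrin, the iron carrier that Sertoli cells pass to germ cells and the liver makes for the blood, was at 0.530, 1.73 and 0.156 FPKM in KO-labelled LZ libraries, against 4.15, 2.94 and 5.60 FPKM in WT LZ libraries. The groups did not overlap, and the log2 change was -1.60 (SE 0.37, adjusted p = 0.0220). A share of 0.136% of the 15400 genes tested was called higher and 12.9% was called lower in this comparison, beside 2 and 1 of the 10 members. The median log2 change was 0.45 over the 9 members tested and -0.43 over all genes. In bulk libraries, a different number of Sertoli cells and a different amount of RNA of these genes per cell cannot be told apart.

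The 6 members that did not pass at LZ were Cldn11 with a log2 change of 1.03 (adjusted p = 0.159 by limma), Inha with 0.86 (0.109), Gata4 with 0.45 (0.450), Wt1 with 0.42 (0.458), Sox9 with 0.34 (0.585) and Tsc22d3 with -0.65 (0.239). Their 95% intervals spanned 0 except that of Inha, which ran from 0.10 to 1.62. Inha was at 45.6, 84.2 and 127 FPKM in KO-labelled LZ libraries, against 53.7, 50.6 and 29.1 FPKM in WT LZ libraries. Cldn11, the claudin of the blood-testis barrier, was at 17.0, 39.0 and 62.5 FPKM in KO-labelled LZ libraries, against 34.2, 13.3 and 9.71 FPKM in WT LZ libraries. For both genes KO-labelled replicate 1 lay below the highest WT library, so the groups overlapped. Without KO-labelled replicate 1, Inha was called higher at 1.25 (adjusted p = 0.0269 by limma).

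The levels moved together from library to library at LZ. KO-labelled replicate 3 was the highest and replicate 1 the lowest of its group for 9 of the 10 members, all but Trf. In WT LZ libraries, replicate 1 was the highest and replicate 3 the lowest for Sox9, Wt1, Gata4, Tsc22d3, Cldn11 and Inha. The summed value of the libraries ran the same way, with 430372, 477243 and 512468 in KO-labelled replicates 1, 2 and 3 and 885259, 803987 and 609831 in WT replicates 1, 2 and 3. Wt1 varied more than these sums did, at 3.20, 5.73 and 11.2 FPKM in KO-labelled and 7.23, 3.33 and 3.02 FPKM in WT LZ libraries.

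After median-ratio scaling Inha joined Shbg and Gata1 among the members called higher in KO-labelled LZ libraries, against 0.451% of all genes. Their log2 changes were 1.45 (SE 0.29, adjusted p = 0.0385), 2.22 (SE 0.38, adjusted p = 0.0277) and 1.73 (SE 0.35, adjusted p = 0.0394), by limma. Trf was not called on that scale, at -1.64 (adjusted p = 0.113), where 0.741% of all genes were called lower. At an unadjusted p under 0.05 in limma on that scale, 7 members were higher and 1 lower, beside 2887 of all 14840 genes in either direction. The median log2 change there was 1.03 over the 9 members tested and 0 over all genes. The calls of the spike-in scale at LZ were lost when single libraries were left out: without WT replicate 2, Shbg was at 1.13 (adjusted p = 0.101), Gata1 at 0.96 (0.159) and Trf at -1.79 (0.0752), and without KO-labelled replicate 3 they were at 1.32 (0.0658), 0.70 (0.135) and -1.33 (0.0638). Without WT replicate 1 the 3 changes were 1.77 (0.0679), 0.97 (0.159) and -1.60 (0.0814). Without KO-labelled replicate 2, Shbg was at 1.39 (0.0723) and Gata1 at 1.18 (0.0865), neither of them called. Gata1 also missed the threshold without any 1 of the 6 pachytene libraries (adjusted p = 0.0520 to 0.0619). Over all genes, the spike-in scale calls at LZ, 21 higher and 1992 lower, became 1 and 6 without WT replicate 1, 0 and 4 without WT replicate 2, 2 and 341 without KO-labelled replicate 2 and 0 and 88 without KO-labelled replicate 3, by limma, with 3452 to 5030 genes at an unadjusted p under 0.05.

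**Figure D2:**
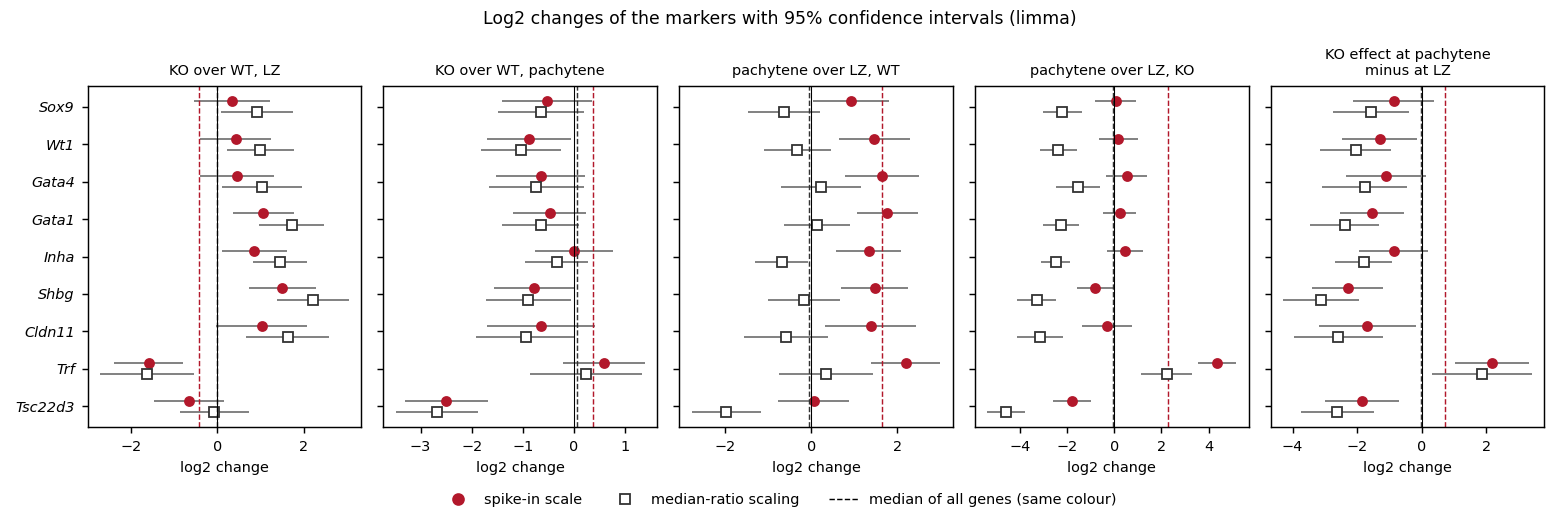
Log2 change (x axis) of the 9 members tested in each comparison, as limma estimate with its 95% confidence interval, on the spike-in scale (filled circles) and after median-ratio scaling (open squares); dashed lines mark the median of all genes on each scale. In KO over WT at LZ most members lie right of both medians, Trf lies left and Tsc22d3 lies slightly left. In pachytene over LZ of KO-labelled libraries the scales put most members on opposite sides of 0.

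At pachytene the genotypes differed most in Tsc22d3, the only member called. Tsc22d3 encodes GILZ, a leucine-zipper protein induced by glucocorticoids, which male germ cells also express and which mouse spermatogenesis requires. It was at 6.65, 24.7 and 24.9 FPKM in KO-labelled pachytene libraries, against 102, 88.6 and 98.7 FPKM in WT pachytene libraries. The groups lay far apart, and the log2 change was -2.50 (SE 0.38, adjusted p = 0.00165) on the spike-in scale and -2.69 (SE 0.37, adjusted p = 0.00195) after median-ratio scaling, where 9.89% of all genes were called lower and 3.73% higher. At LZ the same gene was at 50.7, 62.7 and 63.2 FPKM in KO-labelled libraries, against 115, 91.2 and 75.8 FPKM in WT libraries. Of all genes tested, 14.3% were called lower and 24.6% higher at pachytene, beside 1 and 0 of the 10 members. At an unadjusted p under 0.05 in limma, 3 members were lower and 0 higher, beside 8161 of all 15400 genes in either direction.

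The 4 transcription factors and the carrier gene Shbg had log2 changes below 0 at pachytene, and none of these passed the threshold on the spike-in scale. Wt1, a zinc-finger factor needed to keep Sertoli cell identity, was at 5.93, 8.10 and 6.63 FPKM in KO-labelled pachytene libraries, against 17.3, 12.3 and 11.3 FPKM in WT pachytene libraries. Every KO-labelled library lay below every WT library, but the log2 change of -0.88 (SE 0.38) had an adjusted p of 0.0788 by limma. Shbg was at 6.10, 3.70 and 3.88 FPKM in KO-labelled pachytene libraries, against 9.90, 8.08 and 7.37 FPKM in WT pachytene libraries. These groups did not overlap either, with a log2 change of -0.78 (SE 0.36, adjusted p = 0.0925).

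Gata4, a factor that acts on the promoters of several Sertoli hormones, was at 3.38, 2.97 and 3.66 FPKM in KO-labelled and 8.28, 3.61 and 6.40 FPKM in WT pachytene libraries. Sox9, the factor that directs Sertoli cell fate, was at 2.61, 3.81 and 4.62 FPKM in KO-labelled and 10.1, 4.09 and 4.23 FPKM in WT pachytene libraries. Both genes overlapped between the genotypes, and for Sox9 the WT mean rests largely on replicate 1. The log2 changes were -0.66 for Gata4, -0.53 for Sox9, -0.65 for Cldn11 and -0.48 for Gata1, with adjusted p of 0.192 to 0.290 by limma. Inha was at 96.4, 129.6 and 104.6 FPKM in KO-labelled pachytene libraries, against 128, 78.0 and 132 FPKM in WT pachytene libraries, and its 95% interval ran from -0.76 to 0.75 log2. Trf was at 26.5, 54.7 and 27.0 FPKM in KO-labelled pachytene libraries, against 26.5, 17.2 and 24.7 FPKM in WT pachytene libraries, with a log2 change of 0.58 (adjusted p = 0.212 by limma). The median log2 change was -0.65 over the 9 members and 0.37 over all genes on the spike-in scale. After median-ratio scaling these medians were -0.74 and 0.05.

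The difference between the genotype effects of the stages was tested as an interaction. The change between genotypes was lower at pachytene than at LZ for Shbg, by a log2 difference of -2.29 (SE 0.51, adjusted p = 0.00718), for Tsc22d3, by -1.84 (SE 0.53, adjusted p = 0.0183), and for Gata1, by -1.54 (SE 0.47, adjusted p = 0.0216), all by limma. For Trf it was higher, by 2.18 (SE 0.53, adjusted p = 0.00924). Among all genes 3.49% were called lower and 34.9% higher in this test, beside 3 and 1 of the 10 members. Gata1 was not called without WT LZ replicate 2 (-1.43, adjusted p = 0.0550) or KO-labelled pachytene replicate 1 (-1.47, adjusted p = 0.0527). After median-ratio scaling 6 members were called lower (Shbg, Tsc22d3, Cldn11, Gata1, Wt1 and Inha, at -3.11 to -1.79) against 4.7% of all genes, and Trf was not called at 1.87 (adjusted p = 0.123), with 2.64% of all genes called higher.

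The stage comparison in WT asked how the markers differ between pachytene and LZ cells without the mutation. On the spike-in scale 7 of the 10 members were called higher at pachytene, beside 80.9% of all genes, and 0 were called lower, beside 0.487%, so that count is not a result about the members. Trf was at 26.5, 17.2 and 24.7 FPKM in WT pachytene libraries, against 4.15, 2.94 and 5.60 FPKM in WT LZ libraries, with a log2 change of 2.19 (SE 0.37, adjusted p = 0.000102). Gata1, at 6.63, 9.10 and 10.2 FPKM in WT pachytene libraries, also lay above its WT LZ libraries throughout, with a log2 change of 1.76 (SE 0.33, adjusted p = 0.000234). Gata4, Shbg, Wt1, Cldn11 and Inha had log2 changes of 1.33 to 1.64, close to the median of all genes, 1.64. Cldn11, whose groups overlapped, missed the threshold without WT LZ replicate 2 or 3 or WT pachytene replicate 1 or 3 (1.02 to 1.28, adjusted p = 0.0594 to 0.0952). Sox9, at 0.92 (adjusted p = 0.0512 by limma), and Tsc22d3, at 0.05 (adjusted p = 0.901), were not called. After median-ratio scaling 0 members were called higher by limma (0 also at an unadjusted p under 0.05) and only Tsc22d3 was called lower, at -1.98 (SE 0.37, adjusted p = 0.00148), where 18.9% of all genes were. There 20.8% of all genes were called higher, and 7102 of 14840 had an unadjusted p under 0.05 in either direction. Gata1, Gata4 and Trf kept a change above 0 on that scale, and the other 6 members tested had one below 0.

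In KO-labelled cells the stages differed in another way. Trf was at 26.5, 54.7 and 27.0 FPKM in KO-labelled pachytene libraries, against 0.530, 1.73 and 0.156 FPKM in KO-labelled LZ libraries, with a log2 change of 4.37 (SE 0.37, adjusted p = 6.15e-08). Tsc22d3 was lower at pachytene, with a log2 change of -1.79 (SE 0.38, adjusted p = 0.000546). The groups did not overlap for either gene. The other 7 members tested had log2 changes of -0.81 to 0.54 and were not called, while 76.8% of all genes were called higher, 2.83% lower, and the median gene moved by 2.29. After median-ratio scaling, which removes that median, 8 members were called lower at -4.59 to -1.54 and Trf higher at 2.22, against 31.2% and 32.3% of all genes. The direction of Sox9, Wt1, Gata1, Gata4 and Inha between the stages of KO-labelled cells therefore depends on the scale. This comparison shares its libraries with those above, so its values are not independent of them.

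The members did not all follow each other. Each was divided by Inha in the same library, which removes any scaling of the library. Over the 12 libraries the ratio to Inha ran between 0.0615 and 0.158 for Wt1, 0.0270 and 0.0880 for Sox9, 0.0167 and 0.0646 for Gata4, 0.0273 and 0.117 for Gata1, 0.149 and 0.637 for Cldn11 and 0.0199 and 0.122 for Shbg. The highest was 2.56 to 6.13 times the lowest for these 6 genes. For Tsc22d3 it was 37.8 times, with 0.0690 the lowest and 2.60 the highest, and for Trf it was 342 times, with 0.00123 and 0.422. Within the KO-labelled pachytene libraries the highest ratio was 1.02 times the lowest for Gata1, 1.03 times for Wt1, 1.53 times for Gata4, 1.63 times for Sox9, 2.22 times for Shbg and 2.28 times for Cldn11.

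**Figure D3:**
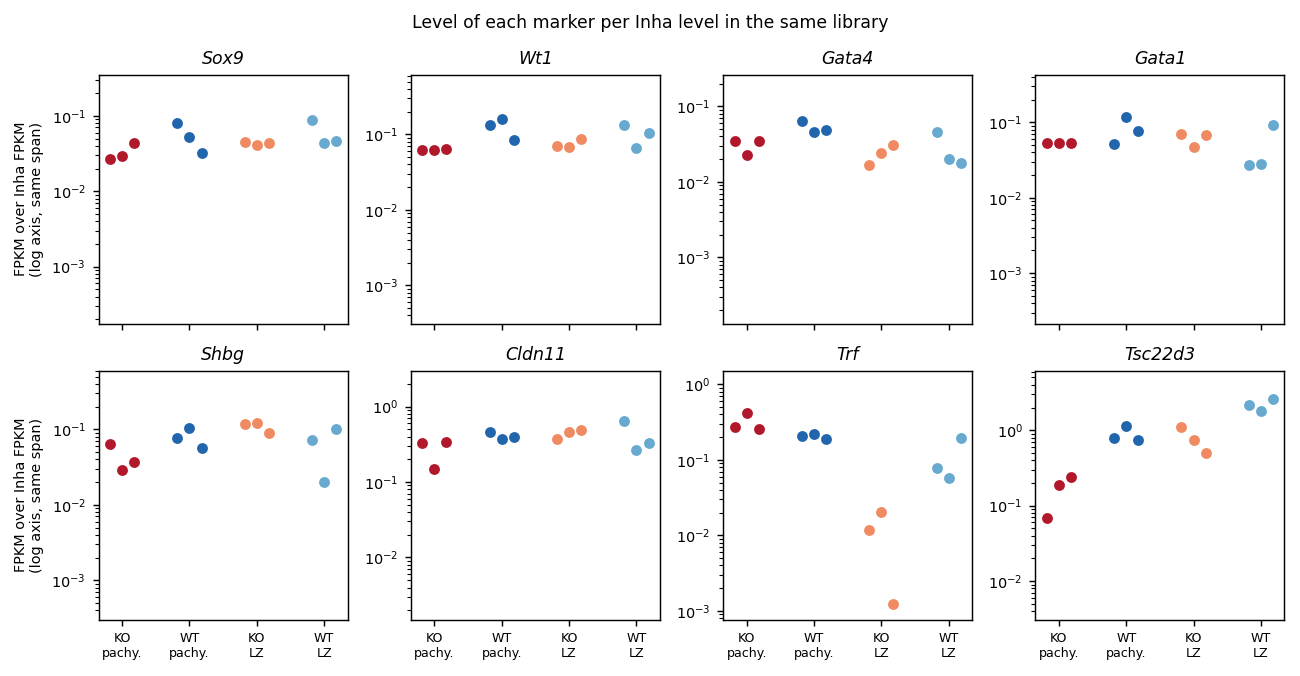
Ratio of each marker's FPKM to that of Inha in the same library (log axis with the same span in each panel), for KO-labelled pachytene, WT pachytene, KO-labelled LZ and WT LZ libraries; points are libraries in replicate order. Sox9, Wt1, Gata4, Gata1, Shbg and Cldn11 stay within 6.13 times over the 12 libraries, and Trf and Tsc22d3 do not.

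Genes with the most similar pattern were found by the root mean square difference of centred log2 values, after median-ratio scaling, over the 12 libraries and 9382 genes. Cldn11 was closest to Mro, Aard and Clu (0.36 to 0.40 log2 units), all of them in the list of other Sertoli genes, and Wt1 to Lactb, Clu and St3gal4 (0.26 to 0.27). Inha was closest to Hgsnat, Prss57 and Nfkbia (0.26 to 0.30), Gata1 to Susd3, Tst and Vdac1 (0.32 to 0.42), and Shbg to AU015836, Clec12b and Drd4 (0.46 to 0.50). Among the members, the smallest difference was between Wt1 and Inha, at 0.42 log2 units, followed by Cldn11 and Inha at 0.46. A rank depends on the gene it is counted from. By rank among the 9382 genes, the closest other member was Cldn11 for Shbg, at rank 4, and Inha for Cldn11, at rank 13. The closest other member ranked 25 for Inha (Wt1), 36 for Gata1 (Inha) and 81 for Wt1 (Inha). Some ranks differed widely between the sides of a pair. Shbg ranked 700 for Wt1, but Wt1 ranked 19 for Shbg. Cldn11 ranked 1105 for Gata1, and Gata1 ranked 401 for Cldn11. Tsc22d3 was closest to Zrsr2, Uchl1 and Nmt2 (0.23 to 0.26) and Trf to Akr1c19, Fam129a and Bhmt2 (0.53 to 0.55). The closest other member ranked 946 for Tsc22d3 (Cldn11) and 8336 for Trf (Wt1), so these 2 genes stood away from the rest in these libraries.

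A list of 30 other Sertoli genes was set beside the members. Of these, 29 were in the table and 26 passed the filter, while Inhba, an activin subunit, was listed at 0 in all LZ libraries. At LZ none was called between the genotypes on the spike-in scale by limma (3 were higher and 0 lower at an unadjusted p under 0.05, median log2 change 0.20). Of all 15400 genes, 5184 were under that unadjusted p in either direction, and the median change was -0.43. The pair with the highest level were Cst9 and Cst12, cystatins of the Sertoli cell, and Cst9 was at 341, 701 and 714 FPKM in KO-labelled LZ libraries, against 702, 515 and 375 FPKM in WT LZ libraries. After median-ratio scaling Kitl, the ligand for the germ cell receptor Kit, was called higher at 1.79 (SE 0.30, adjusted p = 0.0241), beside 0.451% of all genes. On that scale 23 of the 26 had a change above 0, with a median of 0.74 against 0 over all genes. At an unadjusted p under 0.05 in limma 14 were higher and 0 lower there, beside 2887 of all 14840 genes in either direction.

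At pachytene 10 of the 26 were called lower and 1 higher in KO-labelled libraries, beside 14.3% and 24.6% of all genes. The median log2 change was -0.78 over the 26 and 0.37 over all genes. The 4 with the largest change were Dmrt1 at -2.91, Defb45 at -2.63, Cldn3 at -1.98 and Cst9 at -1.79, with adjusted p of 0.00175 to 0.0139 by limma. Dmrt1, a transcription factor that spermatogonia also express, was at 2.15, 6.80 and 12.3 FPKM in KO-labelled pachytene libraries, against 67.9, 41.1 and 46.6 FPKM in WT pachytene libraries. Defb45, a beta-defensin, was at 66.4, 21.2 and 126.8 FPKM in KO-labelled pachytene libraries, against 381, 400.1 and 293 FPKM in WT pachytene libraries. The groups did not overlap for either gene. Cdh2, N-cadherin, which joins Sertoli and germ cells and is made by both, was the gene called higher, at 234, 208 and 148 FPKM in KO-labelled pachytene and 69.7, 35.9 and 75.4 FPKM in WT pachytene libraries.

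By role, 6 of the 9 secreted and other products tested, 3 of the 7 junction genes and 1 of the 6 transcription factors were called lower in KO-labelled pachytene libraries, against 14.3% of all genes. In the interaction 6 of the 26 were called lower and 1 higher, beside 3.49% and 34.9% of all genes, with a median log2 difference of -1.04. After median-ratio scaling 14 were called lower and 1 higher in the interaction, beside 4.7% and 2.64% of all genes, with a median of -1.90. Between the stages, 21 were called higher at pachytene in WT (median 1.44), about the share of all genes, 80.9%. In KO-labelled cells 6 were called higher and 1 lower (median 0.12), beside 76.8% and 2.83% of all genes. After median-ratio scaling the stage counts were 1 higher and 3 lower in WT, beside 20.8% and 18.9% of all genes, and 1 higher and 21 lower in KO-labelled cells, beside 32.3% and 31.2%. In KO-labelled cells the spike-in and median-ratio scales again put most of the list on opposite sides of 0.

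**Figure D4:**
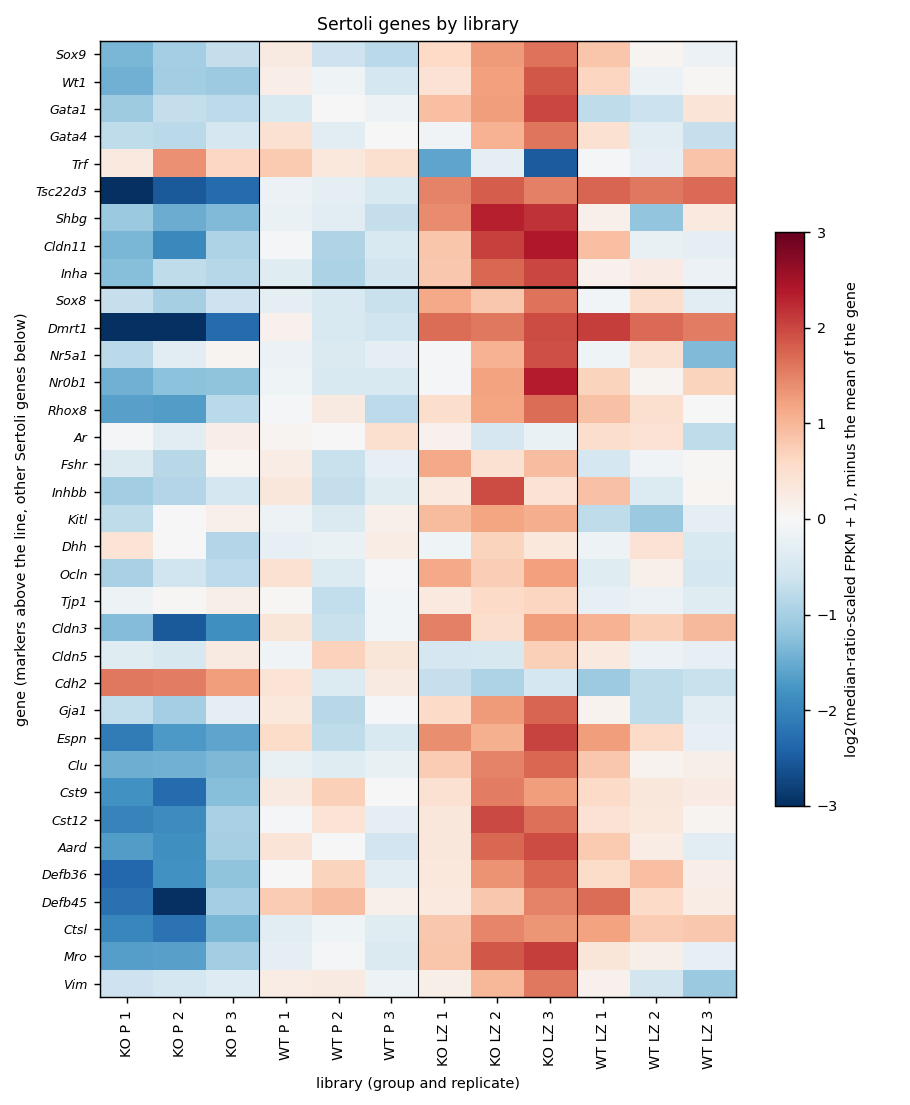
Centred log2(median-ratio-scaled FPKM + 1) of the 9 members tested (above the line) and of other Sertoli genes (below it) in each library, with colours cut at -3 and 3 ("KO" stands for KO-labelled, P for pachytene). KO-labelled LZ replicates 2 and 3 are above the mean and KO-labelled pachytene libraries below it for most genes, with Trf and Cdh2 as the clearest exceptions.

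Markers of other testis cells moved in these libraries too. The 8 Leydig genes summed to 5517, 5248 and 1372 FPKM in KO-labelled pachytene, 2343, 8741 and 7607 FPKM in WT pachytene, 89.2, 3.38 and 5.94 FPKM in KO-labelled LZ and 13.1, 17.1 and 3.74 FPKM in WT LZ libraries. All 8 were called higher at pachytene in both genotypes, by limma, where 80.9% of all genes were in WT and 76.8% in KO-labelled cells. Their median log2 change was 6.27 in KO-labelled cells and 6.01 in WT, and Hsd17b3 and Lhcgr were listed at 0 in all WT LZ libraries. Insl3 made up most of the Leydig sum in every pachytene library. Between the genotypes at pachytene 2 of the 8 were called higher (Lhcgr and Hsd3b1) and 0 lower, beside 24.6% and 14.3% of all genes. The median log2 change of the 8 there was 0.49. The 8 blood and macrophage genes summed to 436 to 726 FPKM in KO-labelled pachytene, 161 to 1002 FPKM in WT pachytene, 0.872 to 3.09 FPKM in KO-labelled LZ and 1.62 to 36.6 FPKM in WT LZ libraries, with the highest WT LZ value in replicate 1 and C1qa and C1qc listed at 0 in all KO-labelled LZ libraries. All 8 were called higher at pachytene in both genotypes as well, against the same shares of all genes, with a median of 5.02 in KO-labelled cells and 3.82 in WT. Of the 7 peritubular muscle genes, 5 were called lower in KO-labelled pachytene libraries, at a summed 191 to 259 FPKM against 700.3 to 840.4 FPKM in WT pachytene libraries. At LZ they summed to 24.0 to 34.9 FPKM in KO-labelled and 71.0 to 75.5 FPKM in WT libraries, with 1 called lower, Actg2. Actg2 made up most of the WT LZ sums, at 66.4, 45.4 and 69.3 FPKM, against 29.8, 2.55 and 15.1 FPKM in KO-labelled LZ libraries. Over the 7 genes the median log2 change at LZ was 0.014, with 4 above 0.

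Germ cell lists moved beside the markers as well. The 6 round spermatid genes summed to 7791, 1683 and 9310 FPKM in KO-labelled pachytene and 43653, 44785 and 36718 FPKM in WT pachytene libraries, and 6 were called lower. At LZ they summed to 5382, 776 and 2104 FPKM in KO-labelled and 31503, 16666 and 14494 FPKM in WT libraries, with 4 called lower. Of 5 spermatogonial genes, 4 were lower in KO-labelled pachytene libraries, where they summed to 14.4 to 24.0 FPKM against 71.8 to 94.5 FPKM in WT, and 1 was lower at LZ, at 8.22 to 17.0 FPKM in KO-labelled and 16.2 to 29.4 FPKM in WT libraries. The 7 leptotene and zygotene genes summed to 1738 to 2701 FPKM in KO-labelled LZ and 2976 to 3392 FPKM in WT LZ libraries, with 0 called by limma at LZ (2 lower at an unadjusted p under 0.05). Of the 5 pachytene genes, 2 were called higher in KO-labelled pachytene libraries, at a summed 2859 to 4160 FPKM against 1711 to 2563 FPKM in WT, and 0 after median-ratio scaling (1 higher and 0 lower at an unadjusted p under 0.05 in limma). At LZ, 2 of these 5 were called lower in KO-labelled libraries, at a summed 77.9 to 153 FPKM against 236 to 341 FPKM in WT. The counts of genotype calls in these lists stand beside 14.3% of all genes called lower and 24.6% higher at pachytene, and 12.9% lower and 0.136% higher at LZ. At an unadjusted p under 0.05 limma had 5184 of all 15400 genes at LZ, in either direction. After median-ratio scaling it had 2887 of 14840 at LZ and 4925 at pachytene. At LZ no call of the peritubular, round spermatid, spermatogonial or pachytene list remained after median-ratio scaling, by limma, where 1, 4, 1 and 2 of their genes were lower and 1, 0, 2 and 2 higher at an unadjusted p under 0.05. The part of other cells in the changes of the Sertoli markers was not tested.

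**Figure D5:**
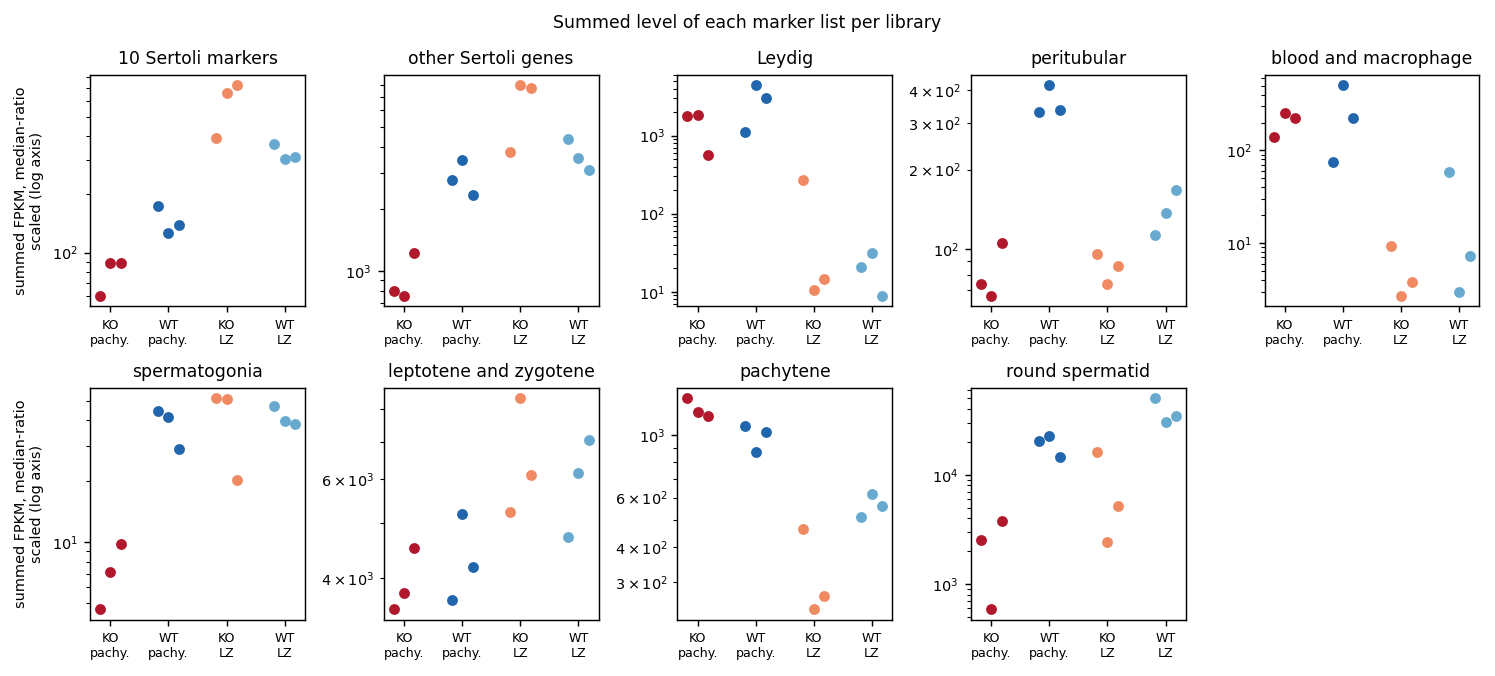
Summed median-ratio-scaled FPKM (log axes, a scale per list) of the 10 Sertoli markers, 29 other Sertoli genes and 7 lists of other testis and blood cells, in KO-labelled pachytene, WT pachytene, KO-labelled LZ and WT LZ libraries; points are libraries in replicate order. Leydig, blood and macrophage sums are high in both pachytene groups, and the sum of the 10 markers is highest in KO-labelled LZ libraries and lowest in KO-labelled pachytene libraries.

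The number of fragments behind the low members limits their precision. Library depths are not given, but the values of low genes in a library behaved as whole multiples of a common step for each gene, as they do when whole fragments are counted. With the ratio of the steps between libraries found from low genes, the values of 9 of the 10 members came out as whole multiples in all 12 libraries within 0.02 of a whole number, all but Tsc22d3. Of 2197 genes sampled, 65.7% did so. On that reading Amh stood at 1, 0 and 1 fragments in KO-labelled pachytene, 1, 1 and 0 in WT pachytene, 1, 3 and 9 in KO-labelled LZ and 2, 5 and 1 in WT LZ libraries. Shbg stood at 115, 205 and 205 in KO-labelled LZ libraries, against 50, 17 and 59 in WT LZ libraries, and at 15, 8 and 10 in KO-labelled pachytene, against 37, 38 and 33 in WT pachytene libraries. Gata1 stood at 90, 107 and 209 in KO-labelled LZ libraries, against 25, 32 and 72 in WT LZ libraries. Trf stood at 20, 61 and 5 in KO-labelled LZ libraries, against 94, 88 and 198 in WT LZ libraries. These numbers fix the values only up to a common multiple, and cDNA was amplified, so they are not numbers of molecules.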

How the data were processed

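RNA of 12 libraries of sorted spermatocytes was analysed, 3 in each of 4 groups taken from the labels. Per the submitters' processing notes, TopHat2 2.1.1, Cufflinks 2.2.1 and the build mm9 were used, and cDNA was amplified before library construction, per the labels' protocols. The authors deposited FPKM per gene scaled by ERCC spike-in RNA, as the table's name states; the scaling formula, annotation and strand use are not given in the sources used here. The table has 4 columns without a name, which were not used. Depth per library is not given, so no interval that needs it is printed.

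Genes at 1 FPKM or more in at least 3 of the 12 libraries were kept (15400 of 23235, 9 of the 10 members). Values were transformed as log2(FPKM + 1) and fitted in limma 3.58.1 under R 4.3.3 with 1 mean per group over all 12 libraries and a variance trend. Tests were two-sided, Benjamini-Hochberg adjusted over all genes, and called at 0.05. Fold changes on this scale understate those of low genes. The fit was tested on simulated data. Median-ratio scaling took, per library, the median over genes of its ratio to their geometric mean as divisor, which left 14840 genes.

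The members and gene lists were chosen with earlier results of these data known. Of 86 listed genes, 85 were in the table, 2 of them under an older symbol. A further list of marker genes is not reported here. Named were all members, up to 4 called genes of the list of other Sertoli genes with the largest absolute change (or 2 with the highest mean), the 3 genes most like each member with a mean of at least 5, overlapping neighbours and Rnaseh1. Promoters and neighbours came from RefSeq (GRCm38.p6) and the deposited values from mm9, so no position was carried between builds. The whole multiples were looked for after the data were seen. Alternatives were another scaling, pseudocount or filter, the 2 groups alone, a replicate block and each library left out.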

Additional observations from a re-analysis of the deposited data

Results flagged for a closer look

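The genotype effect differed between the stages, by the interaction term of limma, for 4 of the 10 Sertoli markers on the spike-in scale. Among all genes 3.49% were called lower and 34.9% higher in that test. The log2 difference, pachytene minus LZ, was -1.54 for Gata1, -2.29 for Shbg and -1.84 for Tsc22d3, and 2.18 for Trf. Shbg and Gata1 were above WT in every KO-labelled LZ library. At pachytene Shbg was below WT in every KO-labelled library, and Gata1 overlapped between the genotypes. Tsc22d3 was below WT in every KO-labelled library of both stages on the spike-in scale. Its change at LZ was not called (-0.65, adjusted p = 0.239 by limma). After median-ratio scaling that change was -0.075, and the LZ groups of Tsc22d3 overlapped. Trf was below WT in every KO-labelled LZ library and overlapped at pachytene.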

How the results depend on the processing

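Each of the 45 log2 changes (9 members, 5 comparisons) was recomputed under the alternatives. Of 962 values, 829 kept direction and side of the threshold, 45 lost the call, 43 gained one and 45 turned direction. The cause was not tested.

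Members called higher in KO-labelled against WT LZ libraries numbered 2, and 1 with a pseudocount of 5, 0 without a filter, 0 with only these 2 groups fitted and 1 with the filter also taken within them. Members called lower there numbered 1, and 0 under median-ratio scaling (with or without the replicate block), equal library totals, a pseudocount of 5 and only the 2 groups. The fit of the 6 LZ libraries alone called 0 genes higher and 0 lower over the same 15400 genes (4682 at an unadjusted p under 0.05), and 11 higher and 1247 lower over the 12282 genes that passed the filter within them, a setting chosen after seeing the data. At pachytene 1 member was lower between genotypes, and 2 with a pseudocount of 5 or only the 2 groups, with either filter. Between the stages in WT, 7 were higher, and 0 under both other scalings; 0 were lower, and 1 under median-ratio scaling and 2 under equal totals. In KO-labelled cells 1 was lower, and 8 under both other scalings and 2 with a pseudocount of 5, a filter of 5 or the filter within the 2 groups. In the interaction 1 was higher, and 0 under both other scalings; 3 were lower, and 6 under both, or 5 under median-ratio scaling with the replicate block.

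Leaving out each library in turn gave 0 to 3 higher and 0 to 1 lower at LZ, 0 to 0 and 1 to 1 at pachytene, 6 to 8 and 0 to 0 between WT stages, 1 to 2 and 1 to 2 between KO-labelled stages, and 1 to 1 and 2 to 6 in the interaction.

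Directions turned mostly with the scaling. Under median-ratio scaling (with or without the replicate block) and under equal totals, the WT stage changes were -0.64 and -0.75 for Sox9, -0.33 and -0.53 for Wt1, -1.98 and -2.24 for Tsc22d3, -0.17 and -0.37 for Shbg, -0.59 and -0.84 for Cldn11 and -0.69 and -0.96 for Inha, with -0.086 for Gata1 under equal totals only. The KO-labelled stage changes were -2.20 and -2.31 for Sox9, -2.37 and -2.62 for Wt1, -2.24 and -2.46 for Gata1, -1.54 and -1.66 for Gata4 and -2.48 and -3.06 for Inha. Tsc22d3 at LZ turned to 0.018 under equal totals. With 1 library left out, Inha at pachytene ran between -0.25 and 0.13, Tsc22d3 between WT stages between -0.093 and 0.21, and between KO-labelled stages Sox9 between -0.22 and 0.33, Wt1 between -0.21 and 0.56, Gata1 between -0.025 and 0.58 and Cldn11 between -0.79 and 0.12. Calls gained without a single library were those of Sox9 between WT stages (without WT LZ 1, KO-labelled LZ 1 or 3, or WT pachytene 2 or 3), of Shbg (without WT LZ 1 or 2, KO-labelled LZ 1 or KO-labelled pachytene 1) and Inha (without KO-labelled LZ 3) between KO-labelled stages, and, in the interaction, of Wt1 and Cldn11 (without WT LZ 1 or KO-labelled LZ 1) and Inha (without KO-labelled LZ 1).

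Whether replicate numbers pair the libraries was not settled. Same-numbered libraries' deviations correlated at -0.167 to 0.259, and no comparison had every value over 0.1. Differently numbered libraries ran from -0.257 to 0.168. Between the stages the same-numbered values were all above 0, at 0.027 to 0.163 in WT and 0.0827 to 0.259 in KO-labelled libraries. The differently numbered ones there ran from -0.204 to 0.0736 and from -0.257 to 0.157. With 3 libraries per group these values cannot decide it. The replicate block changed no member's call on the spike-in scale. Low fragment numbers limit Amh, Shbg and, in KO-labelled LZ libraries, Trf. They also limit other members in KO-labelled pachytene libraries, by the whole multiples above. Gata1 stood there at 17, 20 and 19, Gata4 at 22, 17 and 25 and Sox9 at 21, 27 and 39.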
